A study of Mus musculus with 6 samples.

Results

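Glutamate, GABA and glycine are the fast transmitters of the retina, and the genes described here encode the subunits of their receptors. They were chosen by symbol: all AMPA, kainate, NMDA and delta subunits, the metabotropic glutamate receptors other than Grm6, all GABA-A and GABA-B subunits and all glycine receptor subunits. The rule found 51 of the 24346 genes in the deposited tables. The retinas were taken at postnatal day 12. All mice were labelled Nrl-/-, a background that is used to enrich for cone-like cells because Nrl directs the making of rods, so that neither group is a wild-type retina. The 3 control libraries were Panky+/-;Panky-like+/-;Nrl-/-, so the controls were heterozygous at both targeted genes, and the 3 triple-deficient libraries were Panky-/-;Panky-like-/-;Nrl-/-. The series text describes littermate pairs, but no label says which control library belongs with which triple-deficient library, or whether each library holds 1 animal. P-values therefore measure only the spread between these samples.

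Photoreceptors release glutamate onto bipolar and horizontal cells. OFF bipolar and horizontal cells respond through AMPA and kainate receptors, which are cation channels built from 4 subunits, while ON bipolar cells use the metabotropic receptor encoded by Grm6. Bipolar cells in turn excite amacrine and ganglion cells through AMPA and NMDA receptors. Amacrine cells release GABA or glycine, which open chloride channels of the GABA-A and glycine receptor families, and the Gabrr subunits form the slow GABA receptors of bipolar cell terminals. In whole-tissue RNA, fewer cells of a type and less RNA per cell cannot be told apart.

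Values are FPKM (fragments scaled to transcript length and to the mapped fragments of the library), which allow levels of genes to be compared per length. The steps between low values put the libraries at an estimated 18200000 to 27200000 fragments each. Of the targeted genes, Ankrd33b, taken here to be Panky-like, was at 32.6 to 35.4 FPKM in controls against 1.31 to 1.80 FPKM in triple-deficient libraries, and Ankrd33 (Panky) at 104.0 to 109.7 and 50.5 to 59.6 FPKM. The transcript of Ankrd33 thus persisted at a lower level in the triple-deficient libraries. Nrl RNA was present in every library of this Nrl-/- background, at 38.3 to 49.2 FPKM in controls against 51.3 to 53.7 FPKM in triple-deficient libraries, without overlap (limma adjusted p = 0.861). A gene-level value does not show which part of a targeted transcript it covers. Markers of the neurons that carry these receptors were present in every library. Their summed levels were 1050 to 1072 FPKM in controls against 1074 to 1117 FPKM in triple-deficient libraries for 9 bipolar cell genes (Grik1, one of the receptor genes, among them), 575 to 612 and 590 to 603 FPKM for 9 amacrine genes, 97.7 to 100.6 and 95.2 to 98.2 FPKM for 5 horizontal cell genes, and 539 to 599 and 548 to 565 FPKM for 8 ganglion cell genes. Tfap2b is in both the amacrine and the horizontal list and made up most of the horizontal sum, at 66.6 ± 1.71 and 64.9 ± 2.27 FPKM. Of the 5 horizontal genes, 2 had differences above 0, 1 of them without overlap, and 3 had differences below 0. Rod genes summed to 81.0 to 86.4 FPKM in controls against 95.2 to 98.1 FPKM in triple-deficient libraries, without overlap, with Cnga1 below 0.05 FPKM throughout, against 4867 to 5439 FPKM for 8 cone genes. The summed ranges of bipolar cell genes also did not overlap but nearly met, at 1072 FPKM in the highest control and 1074 FPKM in the lowest triple-deficient library. Each of these 9 genes taken alone overlapped between the groups, with 7 differences above 0 and 2 below. The sums of 7 Mueller glia genes did not overlap either, at 1799 to 1852 FPKM in controls against 1632 to 1760 FPKM in triple-deficient libraries. Of these 7 genes, 5 had differences above 0 and 1 alone was lower without overlap. The 7 pigment epithelium genes summed to 44.6 to 57.3 and 32.9 to 46.6 FPKM, and of the 6 tested, 5 had differences below 0, 3 of them without overlap and with an unadjusted p below 0.05. The part of these markers in the receptor results was not tested. Lens genes reached 16.8 FPKM in control 1 and at most 1.36 FPKM elsewhere. Triple-deficient 3 stood apart in base composition: its deviations from the mean of all libraries correlated with the GC content of the genes at Spearman -0.59 over all genes tested, against 0.07 to 0.30 in the other libraries. The deviations of a gene sum to 0 over the libraries, so a trend in triple-deficient 3 is partly mirrored in the others by construction. Genes are not independent replicates, and these correlations are descriptions.

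The comparison asks whether receptor genes differ between retinas labelled homozygous for both targeted alleles and their heterozygous controls. Of the 51 genes, 47 had a mean of at least 0.5 FPKM and entered the limma fit on log2(FPKM + 1). None of the 47 passed the threshold of 0.05 after adjustment over all genes (Benjamini-Hochberg), against 0.0279% of the 14325 genes tested (0.00698% higher and 0.0209% lower in triple-deficient libraries). At an unadjusted p below 0.05 there was 1 receptor gene, 2.13% of those tested, against 5.09% of all genes. The groups did not overlap for 2 receptor genes, 4.26%, where all genes gave 10.5%. The median difference, triple-deficient minus control, was 0.00026 over the receptor genes and 0.0034 over all genes on the log2 scale, and 23 of 47 receptor genes had differences below 0, against 48.2% of all genes.

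The intervals limit how large a difference on the FPKM + 1 scale these libraries could hide. For 46 of 47 receptor genes, 97.9%, the 95% confidence interval stayed inside 1.5-fold on the FPKM + 1 scale, against 96.8% of all genes, and for 26 it stayed inside 1.2-fold. Grik3 was the exception at 1.5-fold. This scale understates the change of low genes, so the limit is looser for their FPKM. With 0.1 added in place of 1, the differences of Grin2d, Grin3b and Glra4 went from -0.21, -0.11 and 0.14 to -0.27, -0.21 and 0.24. The median of the absolute differences was 0.05 for the receptor genes and 0.05 for all genes. Replicates varied by a median coefficient of variation of 7.70% in controls and 7.50% in triple-deficient libraries.

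**Figure D1:**
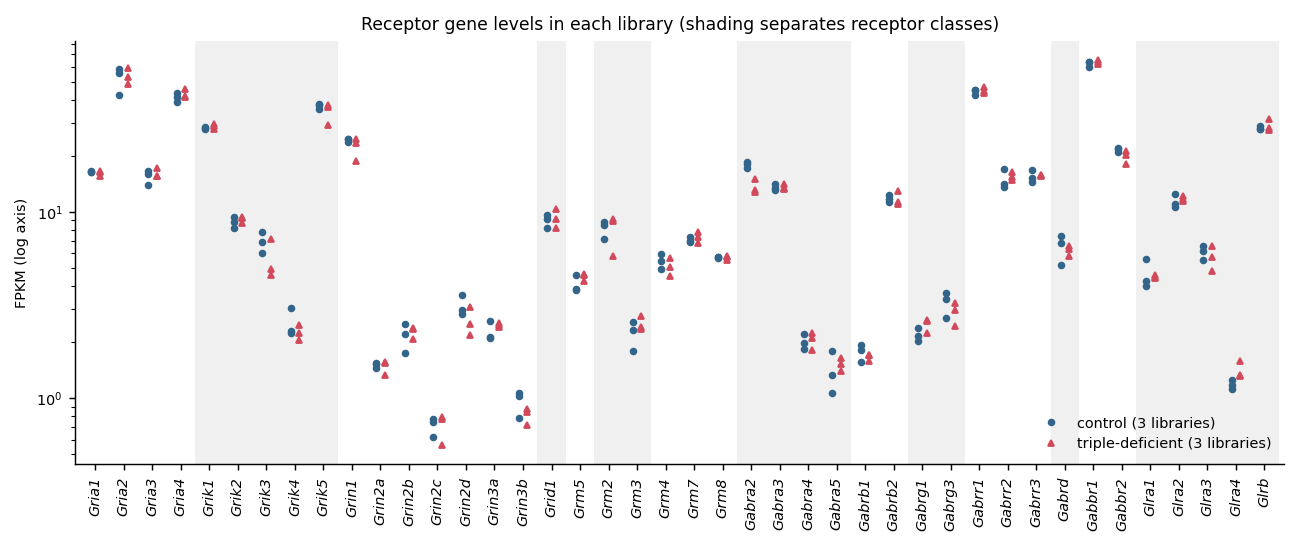
FPKM on a log axis for 42 of the tested receptor genes, with 1 point per library, controls as circles and triple-deficient libraries as triangles, ordered by receptor class. The circles and triangles of nearly every gene lie over each other, while Gabra2 has all triangles (12.9 to 15.1 FPKM) below all circles (17.2 to 18.5 FPKM).

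AMPA receptors, which carry the fast excitatory current, were the most abundant ionotropic glutamate class, with 4 subunits that summed to 125 ± 11.9 FPKM in controls against 129 ± 8.42 FPKM in triple-deficient libraries (SD, n = 3). Gria2 encodes the subunit that decides whether the channel passes calcium. At the pore position that controls this, the RNA of Gria2 and of the kainate genes Grik1 and Grik2 is edited by ADARB1, which changes a glutamine codon to one read as arginine. The coding sequences around that codon are shown because they set the members of these classes side by side at the position where they are known to differ. They come from GENCODE M21 transcripts on GRCm38, read 5′ to 3′, with the codon in capitals.
Gria1: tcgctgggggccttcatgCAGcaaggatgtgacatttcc
Gria2: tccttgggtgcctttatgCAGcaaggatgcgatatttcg
Gria3: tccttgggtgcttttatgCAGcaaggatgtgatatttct
Gria4: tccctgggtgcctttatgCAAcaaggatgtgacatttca
Grik1: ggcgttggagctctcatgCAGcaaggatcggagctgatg
Grik2: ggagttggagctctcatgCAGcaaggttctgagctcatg

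All 6 genes hold a glutamine codon here in the reference, CAG in 5 of them and CAA in Gria4, so the difference between Gria2 and the other AMPA subunits at this site is not in the genome. The codon of Gria2 is number 607 of its open reading frame, at chr3:80706911-80706913 on the minus strand. The deposited values are 1 number per gene and do not show which share of the RNA was edited. Adarb1 itself was at 34.2 ± 1.29 FPKM in controls against 34.0 ± 0.883 FPKM in triple-deficient libraries.

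Gria2 stood at 58.4, 55.5 and 42.5 FPKM in control libraries 1, 2 and 3 and at 48.4, 53.0 and 58.9 FPKM in triple-deficient libraries 1, 2 and 3. The groups overlapped throughout, and the spread within each was larger than the difference of 0.04 on the log2 scale (95% interval -0.23 to 0.32). Gria4, the next in level, was at 41.2 ± 2.38 and 42.9 ± 2.26 FPKM. Gria1 and Gria3, subunits of the same channels, were at 16.4 ± 0.152 and 15.5 ± 1.36 FPKM in controls against 16.2 ± 0.491 and 16.1 ± 0.954 FPKM in triple-deficient libraries. The make-up of the class differed by less than the spread between libraries: Gria2 gave 41.4% ± 2.99 of the AMPA total in controls and 41.5% ± 1.66 in triple-deficient libraries, and Gria4 33.0% ± 1.48 and 33.4% ± 0.764. With 3 libraries a group no exact test of a share could go below a two-sided p of 0.10, so shares are given with their spread and no test.

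Kainate receptors, which shape the responses of OFF bipolar cells, summed to 83.2 ± 2.31 FPKM in controls against 80.1 ± 2.95 FPKM in triple-deficient libraries over 5 genes. The principal subunit gene Grik1, known from OFF bipolar cells, was at 28.1, 28.6 and 27.8 FPKM in controls against 29.0, 27.7 and 29.6 FPKM in triple-deficient libraries. These are among the closest replicates of the set, and the interval of the difference was -0.08 to 0.13. Grik2 was at 8.82 ± 0.624 and 9.14 ± 0.385 FPKM. Among the auxiliary kainate subunits, which raise the affinity of the channel for its ligand, Grik5 was the more abundant.

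Grik5 was at 37.2, 37.7 and 35.5 FPKM in controls against 37.6, 36.3 and 29.3 FPKM in triple-deficient libraries, so that triple-deficient 3 alone set it apart. The transcript of Grik5 has 61.7% GC, and its difference went from -0.10 to 0.01 once the GC trend of each library was removed. Grik4 was at 2.53 ± 0.461 and 2.26 ± 0.209 FPKM.

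Grik3 had the interval that reached furthest from 0 of the tested receptor genes. It stood at 7.76, 6.90 and 6.04 FPKM in controls against 4.91, 4.56 and 7.13 FPKM in triple-deficient libraries. Triple-deficient 1 and 2 were below every control and triple-deficient 3 was not, which gave a difference of -0.29 (95% interval -0.62 to 0.04, limma adjusted p = 0.943). Without triple-deficient 3 the difference was -0.46 and still did not pass (limma adjusted p = 0.498, and 0.311 to 0.998 over all alternatives). Within the kainate class the share of Grik3 was 8.28% ± 0.829 in controls and 6.94% ± 1.96 in triple-deficient libraries.

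NMDA receptors need the obligatory subunit GRIN1 with GRIN2 or GRIN3 partners. Their 7 genes summed to 35.0 ± 1.70 FPKM in controls against 32.6 ± 3.27 FPKM in triple-deficient libraries, and Grin1 gave 69.4% ± 1.71 and 68.2% ± 2.78 of that. Grin1 was at 24.7, 24.7 and 23.6 FPKM in controls against 24.6, 23.5 and 18.8 FPKM in triple-deficient libraries. The low value was again that of triple-deficient 3, at 59.4% GC. The difference of -0.13 became -0.01 without that library and -0.06 with the GC trend removed. An antisense transcript, Grin1os, was at 3.731 to 5.099 FPKM and shares up to 165 bases of exon with Grin1. Whether the authors counted by strand is not given in the sources used here, so a part of either value may belong to the other.

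Partner subunits were far below Grin1 per length. Grin2d was at 3.14 ± 0.396 and 2.59 ± 0.470 FPKM, Grin3a at 2.27 ± 0.284 and 2.48 ± 0.059 FPKM, and Grin2b at 2.15 ± 0.374 and 2.26 ± 0.166 FPKM. Grin2a, the partner that commonly replaces Grin2b as circuits mature, was at 1.51 ± 0.053 and 1.48 ± 0.123 FPKM. The ratio of Grin2b to Grin2a within a library was 1.63, 1.43 and 1.21 in controls and 1.75, 1.34 and 1.52 in triple-deficient libraries, in overlapping groups. Grin2d has the highest GC content of the set, 65.0%, and its difference of -0.21 (95% interval -0.47 to 0.05) was -0.03 with the GC trend removed. Without triple-deficient 3 the difference was -0.12.

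Grin2c and Grin3b lay closest above the limit for testing. Grin2c was at 0.711 ± 0.083 FPKM in controls against 0.710 ± 0.130 FPKM in triple-deficient libraries, which is about 69.9 to 91.0 fragments a library. Grin3b was at 0.964 ± 0.154 and 0.814 ± 0.080 FPKM, and 399 bases of its exons lie opposite an exon of Tmem259, a gene at 42.2 to 62.7 FPKM, so that its value is uncertain. Grid1, a delta subunit that acts as a synaptic adhesion protein, was at 9.02 ± 0.711 and 9.21 ± 1.05 FPKM.

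**Figure D2:**
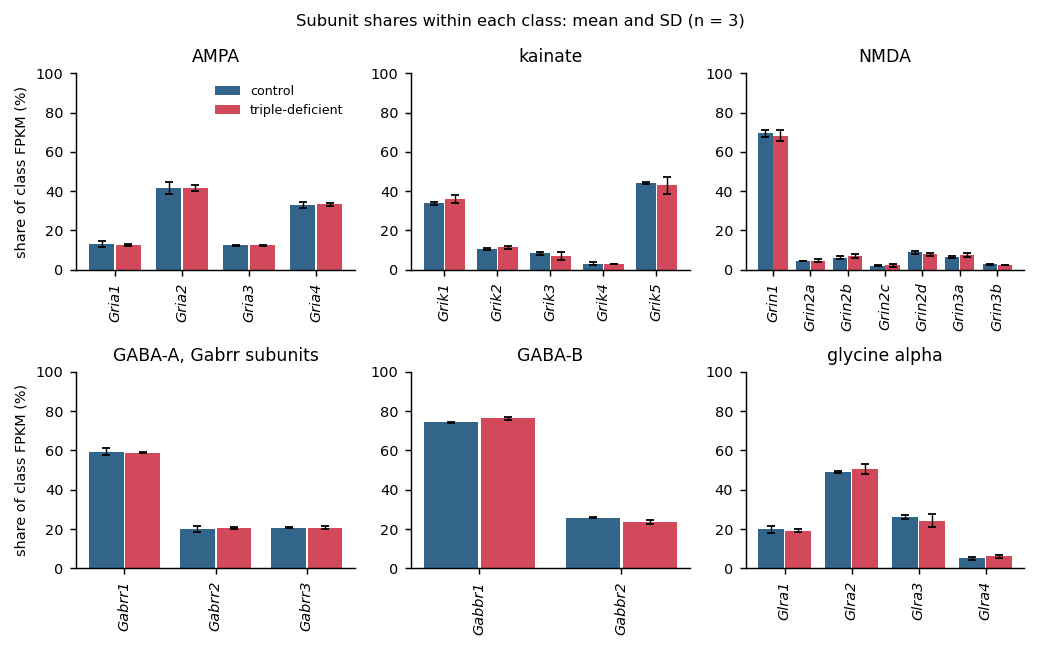
Share of each subunit in the summed FPKM of its class, in percent, as the mean of 3 libraries with the SD as error bar, controls in blue and triple-deficient libraries in red. Grin1 (69.4% and 68.2%), Gabrr1 (59.3% and 58.9%) and Gabbr1 (74.3% and 76.3%) lead their classes in both groups, and the share of Grik3 is 8.28% in controls and 6.94% in triple-deficient libraries.

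Metabotropic glutamate receptors signal through G proteins and tune release and excitability. Of the 7 genes without Grm6, none passed and no groups stood apart, with 3 differences above 0 and 4 below, and a median of -0.0065. In group I, which couples to phospholipase C, Grm5 was at 4.10 ± 0.442 and 4.50 ± 0.209 FPKM. Group III receptors, presynaptic brakes on release, overlapped between the groups too: Grm7 was at 7.07 ± 0.242 and 7.31 ± 0.458 FPKM, Grm8 at 5.71 ± 0.040 and 5.68 ± 0.135 FPKM, and Grm4 at 5.45 ± 0.504 and 5.07 ± 0.562 FPKM.

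The 2 members of group II, which lower cyclic AMP, had differences of opposite sign. Grm2, best known in the retina from starburst amacrine cells, was at 8.83, 7.14 and 8.46 FPKM in controls against 9.12, 8.93 and 5.77 FPKM in triple-deficient libraries. Its lowest value, like that of Grik5 and Grin1, came from triple-deficient 3, and leaving that library out turned the difference from -0.05 to 0.14. Grm3 was at 2.23 ± 0.398 and 2.50 ± 0.221 FPKM (difference 0.12, 95% interval -0.12 to 0.36). Neither gene passed in any alternative.

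GABA-A receptors are chloride channels of 5 subunits, most often of alpha, beta and gamma type. Of 19 GABA-A genes, 15 were tested, with 8 differences above 0 and 7 below. Among beta and gamma subunits, Gabrb2 was at 11.8 ± 0.439 and 11.8 ± 1.004 FPKM, Gabrb1 was at 1.77 ± 0.192 and 1.66 ± 0.065 FPKM, Gabrg3 at 3.26 ± 0.505 and 2.88 ± 0.401 FPKM, and Gabrg1 at 2.19 ± 0.169 and 2.48 ± 0.219 FPKM.

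Alpha subunits set the kinetics of the channel and its response to benzodiazepines, and they held the receptor gene with the smallest p. Gabra2 stood at 18.5, 17.2 and 17.96 FPKM in control libraries 1, 2 and 3 and at 12.9, 13.1 and 15.1 FPKM in triple-deficient libraries 1, 2 and 3. Every triple-deficient library lay below every control, as was the case for 5.64% of all genes tested. The triple-deficient mean was 0.764 times the control mean (13.7 ± 1.22 against 17.9 ± 0.665 FPKM). On the log2 scale the difference was -0.37 (SE 0.068, 95% interval -0.52 to -0.21), with an unadjusted p of 0.000607, the 19th smallest of 14325 genes, and it did not pass (limma adjusted p = 0.457). About 1607 to 2515 fragments a library lie behind these values. Gabra2 is known to differ between mouse substrains through an intronic variant. The strain background of the litters is not given in the sources used here, and the part of strain in this difference was not tested.

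Gabra2 kept its direction and an unadjusted p below 0.05 in all 18 alternatives, with a difference between -0.43 and -0.33 and an adjusted p between 0.0645 and 0.982. The smallest adjusted values were 0.0645 with the GC trend removed, 0.0658 without triple-deficient 3 and 0.0746 with array quality weights. Its transcript has 38.4% GC, and the highest of the 3 triple-deficient values came from triple-deficient 3, the library that stood apart in base composition. What part base composition had in the Gabra2 difference was not tested. The summed markers of amacrine and ganglion cells, among the neurons that carry GABA-A receptors, overlapped between the groups. Those of bipolar cells were slightly higher in triple-deficient libraries as a sum, while each bipolar marker taken alone overlapped. The part of cell make-up in the Gabra2 result was not tested.

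**Figure D3:**
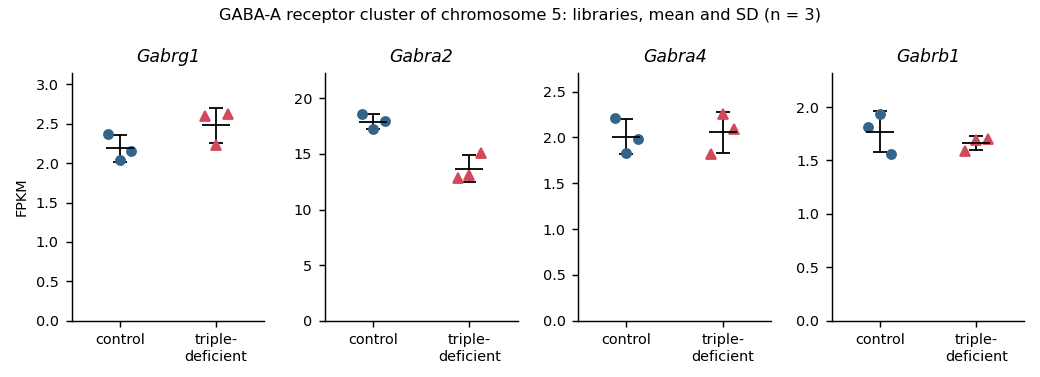
FPKM of the 4 GABA-A genes that lie together on chromosome 5, with 1 point per library and the mean and SD (n = 3) as black bars, each panel starting at 0. Gabra2 has separate groups (17.9 ± 0.665 and 13.7 ± 1.22 FPKM), while the groups of Gabrg1, Gabra4 and Gabrb1 overlap.

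Gabra2 lies at chr5:70958392-71095849 (GRCm38, RefSeq) in a cluster with Gabrg1, Gabra4 and Gabrb1, which end or start 0.116, 0.474 and 0.562 Mb away. The groups of these neighbours overlapped: Gabra4 was at 2.01 ± 0.192 and 2.06 ± 0.221 FPKM, and the differences of Gabrg1, Gabra4 and Gabrb1 were 0.13, 0.02 and -0.05. Within 3 Mb on either side, 19 genes other than Gabra2 were tested, these 3 among them, and their median difference was 0.01. Of these 19, 2 had an unadjusted p below 0.05, where all genes gave 5.09%, and their signs were opposite. They were Atp10d, at 4.33 ± 0.046 and 3.77 ± 0.262 FPKM, and Usp46, at 25.8 ± 0.646 and 29.4 ± 0.853 FPKM. The groups did not overlap for either, 1 lower and 1 higher, where all genes gave 10.5%. These 2 genes were chosen after their values were seen, and neither passed (limma adjusted p = 0.943 and 0.651).

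The promoter of Gabra2 is shown because the gene had the smallest p of the set and because Panky is a co-repressor of CRX, a homeodomain factor of photoreceptors that recognises the letters TAATCC. The 250 bases before the RefSeq start, chr5:71095850-71096099 on the minus strand of GRCm38.p6, hold the motif at position -139 from the start, in capitals.
Gabra2: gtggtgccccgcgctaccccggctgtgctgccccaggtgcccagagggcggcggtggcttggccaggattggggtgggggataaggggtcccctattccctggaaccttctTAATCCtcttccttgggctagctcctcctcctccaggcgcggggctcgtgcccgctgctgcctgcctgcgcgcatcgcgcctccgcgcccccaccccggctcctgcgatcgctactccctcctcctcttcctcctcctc

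The search covered TAATCC and its reverse complement GGATTA. Of all 32851 promoters in the RefSeq table, 6.25% held either in the same window. The table had promoters for 35 of the 51 receptor genes, 42 in all, and 2 of these, 4.76%, held a match: that of Gabra2 and 1 of Gabrr2. A match is a string of letters and does not show binding.

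The other alpha subunits overlapped between the groups. Gabra3 was at 13.6 ± 0.530 and 13.6 ± 0.445 FPKM, with a difference of 0.00026 (95% interval -0.12 to 0.12). Gabra5, an alpha subunit known from receptors outside synapses, was at 1.40 ± 0.360 and 1.53 ± 0.127 FPKM.

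The Gabrr subunits, a hallmark of bipolar cells, summed to 74.5 ± 4.29 FPKM in controls against 76.2 ± 2.40 FPKM in triple-deficient libraries. Gabrr1 stood at 42.2, 45.1 and 45.2 FPKM in controls against 44.6, 46.5 and 43.4 FPKM in triple-deficient libraries. The groups overlapped, and the interval of the difference was -0.09 to 0.13. Gabrr2, its neighbour on chromosome 4, was at 14.9 ± 1.88 and 15.5 ± 0.792 FPKM, and Gabrr3, on chromosome 16, at 15.5 ± 1.15 and 15.8 ± 0.099 FPKM. All 3 differences were above 0 and at most 0.06.

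Of the remaining GABA-A subunits only Gabrd was tested. Its product replaces gamma in receptors that respond to ambient GABA. Gabrd was at 6.50 ± 1.17 and 6.23 ± 0.391 FPKM.

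The 4 receptor genes below the limit were all of the GABA-A family. Gabra6, an alpha subunit of cerebellar granule cells, was listed at 0 in 5 libraries and at 0.018 FPKM, about 1 fragment, in control 3. Gabrp was listed at 0 in every library, where 3 fragments would have been worth 0.034 to 0.050 FPKM. Gabre was at 0.071 to 0.138 FPKM and Gabrq at 0.187 to 0.294 FPKM, in overlapping groups, although Gabra3, which lies between them on the X chromosome, was at 13.6 FPKM.

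GABA-B receptors are heterodimers of GABBR1, which binds GABA, and GABBR2, which couples to the G protein. Gabbr1 had the highest mean of the 51 receptor genes, at 63.7, 63.5 and 60.2 FPKM in controls against 65.3, 63.9 and 61.8 FPKM in triple-deficient libraries. Gabbr2 was at 21.7, 22.0 and 20.99 FPKM in controls against 21.2, 20.2 and 18.1 FPKM in triple-deficient libraries. The groups of both genes overlapped. The difference of Gabbr2 was -0.12 (95% interval -0.26 to 0.02, limma adjusted p = 0.943), and -0.06 without triple-deficient 3.

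Glycine receptors pair alpha subunits, which bind glycine, with the beta subunit that ties the channel to gephyrin. Glrb was at 28.2 ± 0.596 FPKM in controls against 29.0 ± 2.17 FPKM in triple-deficient libraries. The 4 alpha subunits summed to 23.3 ± 2.21 and 23.4 ± 0.441 FPKM. Glra2 led them at 11.4 ± 0.956 and 11.8 ± 0.379 FPKM, and Glra3 followed at 6.09 ± 0.551 and 5.69 ± 0.883 FPKM. Glra1, the subunit of fast glycinergic synapses, was at 4.62 ± 0.851 and 4.50 ± 0.082 FPKM.

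Glra4, the least abundant glycine receptor gene, was the other member whose groups did not overlap. It stood at 1.18, 1.13 and 1.248 FPKM in controls against 1.59, 1.32 and 1.34 FPKM in triple-deficient libraries. All triple-deficient values were higher, as was the case for 4.86% of all genes tested. The difference was 0.14 (95% interval -0.05 to 0.34), and it did not pass (limma unadjusted p = 0.123, adjusted p = 0.946). About 44.5 to 79.3 fragments a library lie behind it.

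**Figure D4:**
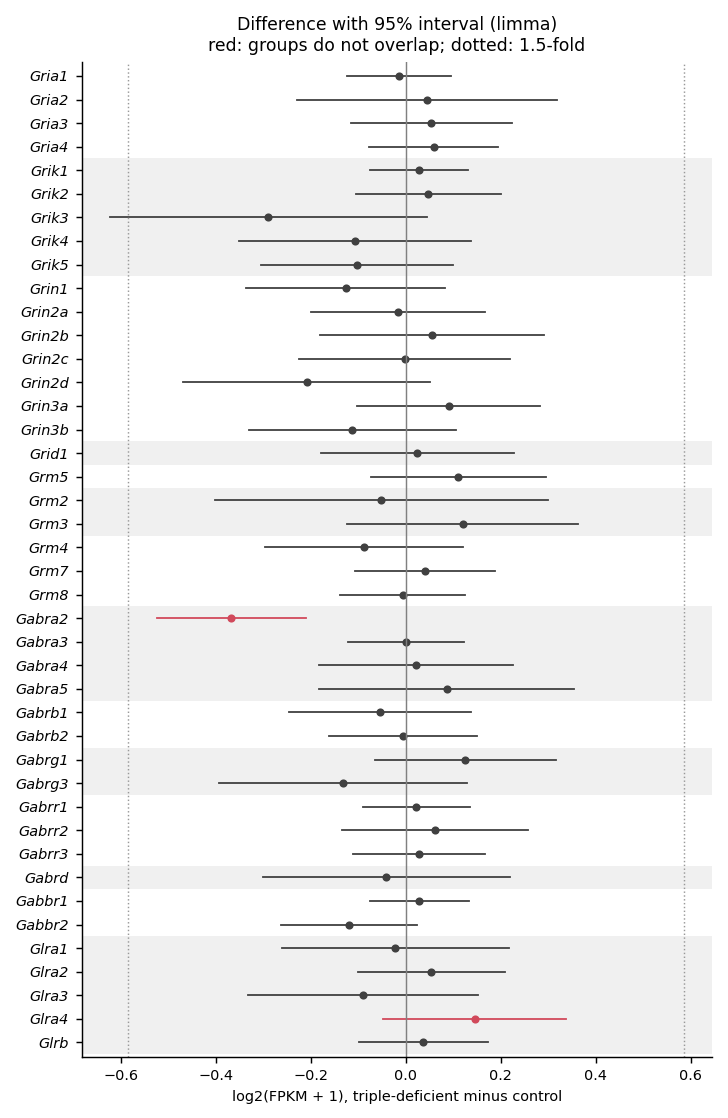
Difference in log2(FPKM + 1), triple-deficient minus control, with its 95% interval from limma for 42 of the tested receptor genes; the dotted lines mark 1.5-fold and red marks the 2 genes whose groups do not overlap. Of the intervals drawn, that of Gabra2 (-0.52 to -0.21) alone leaves out 0, and that of Grik3 alone crosses a dotted line.

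The correlation with base composition seen over all genes was also present among the receptor genes. Over the 47 tested, the deviations of triple-deficient 3 correlated with GC content at Spearman -0.50, against 0.04 to 0.32 in the other libraries. Receptor transcripts span 35.2% to 65.0% GC. Of the 8 with at least 55% GC, a limit chosen after the values were seen, 7 had their lowest value in triple-deficient 3, with a median deviation of -0.22, while 16 of the other 39 had their highest value there, with a median deviation of 0.05. Across these genes, the genotype difference and GC content had a Spearman correlation of -0.35.

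**Figure D5:**
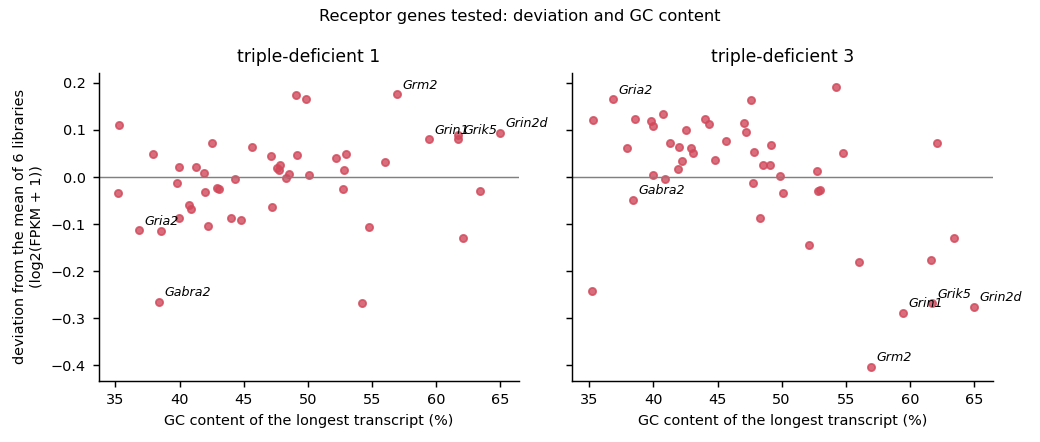
Deviation of each tested receptor gene from its mean over the 6 libraries, on the log2(FPKM + 1) scale, against the GC content of its longest transcript in percent, for triple-deficient 1 (left) and triple-deficient 3 (right). In triple-deficient 3 the points run downward with GC content (Spearman -0.50) and Grin1, Grik5, Grin2d and Grm2 lie far below 0, while in triple-deficient 1 the order is the other way (Spearman 0.32). The deviations of a gene sum to 0 over the 6 libraries, so the opposite orders are partly built in.

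Of the 51 receptor genes, 6 lie on the X chromosome: Gria3, Gabra3, Gabre, Gabrq, Glra2 and Glra4. By Xist, 2 control libraries and 1 triple-deficient library were female, so sex and genotype were not balanced. With sex as a covariate the differences of the 4 that were tested were 0.08 for Gria3, -0.003 for Gabra3, 0.05 for Glra2 and 0.12 for Glra4, and none passed.

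Receptors depend on partner proteins for assembly, anchoring and supply of transmitter. Of 81 such genes in 7 lists, 79 were tested and 0 passed limma's threshold; 0 had an unadjusted p below 0.05, against 5.09% of all genes. Their median difference was 0.00028, with 40 above 0 and 39 below, and 4 did not overlap between the groups, where all genes gave 10.5%. Named below are up to 4 genes of every list, those with the lowest p; none passed.

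Auxiliary subunits of AMPA and kainate receptors had a median difference of 0.0032 over 17 genes. Cnih2, a cornichon that escorts AMPA receptors, was at 32.6, 32.1 and 33.3 FPKM in controls against 31.2, 31.0 and 22.7 FPKM in triple-deficient libraries. Most of the gap came from triple-deficient 3, the library that stood apart in base composition. The part of base composition in this gap was not tested. All 3 triple-deficient values of Cnih2 lay below every control. Neto2, an auxiliary subunit of kainate receptors, was at 10.6 ± 0.241 and 11.5 ± 0.882 FPKM, likewise apart but in the other direction. Shisa6 was at 3.38 ± 0.343 and 3.83 ± 0.120 FPKM, and Frrs1l, an assembly factor, at 9.31 ± 0.816 and 10.04 ± 0.232 FPKM. In the 20 excitatory scaffold genes the median was -0.03, with Shank3 at 8.90 ± 0.482 and 7.69 ± 0.894 FPKM, without overlap, and Dlgap3 at 19.4 ± 0.323 and 16.2 ± 3.22 FPKM; both had their lowest value in triple-deficient 3. Pick1, which traffics AMPA receptors, was at 28.7 ± 1.36 and 26.5 ± 1.64 FPKM, and Homer1, which links group I metabotropic receptors, at 11.2 ± 0.355 and 12.1 ± 1.10 FPKM.

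Inhibitory scaffolds had a median of -0.01 over 14 genes. Gphn, which encodes gephyrin, the scaffold of glycine and GABA-A receptors, was at 28.7 ± 1.26 and 31.3 ± 2.14 FPKM. Kctd12, an auxiliary subunit of GABA-B receptors, was at 10.9 ± 0.921 and 11.5 ± 0.638 FPKM, and Gabarap at 140 ± 12.9 and 132 ± 8.53 FPKM. The groups of these genes overlapped.

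On the supply side, Slc17a6, a vesicular glutamate transporter of ganglion and some bipolar cells, was at 21.8 ± 1.02 and 23.4 ± 0.815 FPKM, without overlap. Uptake genes Slc1a7 and Slc1a3 were at 180 ± 5.93 and 110 ± 6.41 FPKM in controls against 170 ± 4.201 and 116 ± 6.88 FPKM in triple-deficient libraries. The 9 genes of this list had a median of 0.00028.

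Slc32a1, which loads GABA and glycine into vesicles, was at 38.6 ± 0.904 and 33.9 ± 4.51 FPKM, the lowest p of its list (limma unadjusted p = 0.0619, adjusted p = 0.943), and again lowest in triple-deficient 3, at 29.1 FPKM. Slc6a5, a glycine transporter, was at 3.995 ± 0.692 and 3.49 ± 1.03 FPKM, Abat, which degrades GABA, at 42.1 ± 0.518 and 43.2 ± 0.721 FPKM, and the chloride exporter Slc12a5 at 146 ± 6.96 and 141 ± 11.5 FPKM. The 12 genes had a median of -0.0063. Of genes that make ligands of the NMDA glycine site or kynurenate, 5 of 7 were tested, among them Srr, the serine racemase, at 27.1 ± 1.10 and 28.9 ± 1.49 FPKM, Shmt2 at 24.7 ± 1.62 and 23.5 ± 0.457 FPKM, Shmt1 at 0.526 ± 0.314 and 0.666 ± 0.106 FPKM, and Ccbl2 at 1.02 ± 0.184 and 0.951 ± 0.136 FPKM. The editing enzyme genes Adar and Adarb2 were at 22.4 ± 0.317 and 5.603 ± 0.282 FPKM in controls against 22.8 ± 0.501 and 5.81 ± 0.071 FPKM in triple-deficient libraries.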

How the data were processed

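Per the labels' protocols, RNA was isolated with TRIzol and sequenced from TruSeq stranded mRNA libraries. The authors deposited 1 table of FPKM values per library, 24346 symbols each, used here as deposited. The submitters' processing notes list Cuffdiff, Cufflinks 2.2.1, Bowtie2 2.3.5.1 and TopHat2 2.1.1, without roles, and the build mm10. How libraries were scaled, and on which annotation, is not given in the sources used. Depth is an estimate from the steps of values below 0.3 FPKM, set to an absolute scale with 133 genes of 1 annotated transcript, so no counts were rebuilt.

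The genotypes were compared by limma (3.58.1, R 4.3.3; trend option on) using log2(FPKM + 1). Genes averaging 0.5 FPKM or more across all 6 libraries entered, 14325 genes. Tests were two-sided and adjusted by Benjamini-Hochberg over all of them. Differences on this scale understate the change of low genes. The fit was tested on simulated data. No p was computed over the receptor genes alone. The members and lists were chosen with earlier results of these data known. The text names 46 of the receptor genes (the others are not reported here), up to 4 genes of each partner list with the smallest p, marker lists by their sums and the targeted genes. GC content and length are those of the longest GENCODE M21 transcript (found for 99.3% of tested genes). The older symbols Ccbl1 and Ccbl2 stand for Kyat1 and Kyat3. Sequences and coordinates are from GENCODE M21 and RefSeq GRCm38.p6; all 51 symbols matched RefSeq. Controls and triple-deficient libraries share the numbers 1 to 3, but the labels do not tie a number to a litter, so it was no term in the model.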

Additional observations from a re-analysis of the deposited data

How the results depend on the processing

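Across 18 alternatives, fixed with earlier results known, 0 receptor genes and 0 of the partner genes passed limma's threshold in any; the smallest adjusted p of a receptor gene was 0.0645 (Gabra2, GC trend removed). Over all genes 4 passed, against 2 with no filter, 2 with robust shrinkage and 3 to 11 when 1 library was left out (8 without control 3, 11 without triple-deficient 1 and 11 without triple-deficient 3); the cause was not tested. Same-numbered libraries deviated together at correlations of 0.02, 0.11 and 0.07 across genes, and differently numbered ones at -0.19 to 0.12. With so few libraries these values cannot decide whether the numbers mark pairs. The labels do not tie a number to a litter, so the numbers were not taken as pairs. With the replicate block 4 genes passed over all genes and 0 receptor genes, and Gabra2 had a difference of -0.37 (adjusted p = 0.510).

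Of 844 differences of single receptor genes under the alternatives, 768 kept their direction and 76 did not, in 26 genes whose difference was at most 0.11 in size; the other 21 genes kept it in every alternative. The cause was not tested. With the GC trend removed, with or without the replicate block, differences were -0.028 for Gabra3, -0.010 for Gabra4, -0.012 for Gabrr3, -0.00059 for Glrb, -0.0065 for Gria2, -0.00027 for Grik2, 0.0077 for Grik5, 0.12 for Grin2c, 0.032 for Grin3b and 0.023 for Grm4. With array quality weights they were -0.018 for Gabra3, 0.0098 for Glra3, -0.038 for Gria2, -0.0083 for Gria3, -0.020 for Grid1, -0.020 for Grin2b and 0.091 for Grm2. With sex as a covariate they were -0.0032 for Gabra3, 0.014 for Glra1, -0.018 for Grid1, 0.0023 for Grin2a and 0.031 for Grin2c, and with quantile normalization 0.00024 for Grin2c.

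Leaving out 1 library gave ranges of -0.025 to 0.029 for Gabra3, -0.025 to 0.079 for Gabra4, -0.015 to 0.20 for Gabra5, -0.069 to 0.036 for Gabrb2, -0.17 to 0.051 for Gabrd, -0.0092 to 0.045 for Gabrr1, -0.017 to 0.082 for Gabrr3, -0.098 to 0.099 for Glra1, -0.18 to 0.0088 for Glra3, -0.022 to 0.076 for Glrb, -0.032 to 0.0081 for Gria1, -0.094 to 0.13 for Gria2, -0.015 to 0.099 for Gria3, -0.052 to 0.096 for Grid1, -0.00017 to 0.092 for Grik2, -0.17 to 0.0057 for Grik5, -0.039 to 0.026 for Grin2a, -0.039 to 0.13 for Grin2b, -0.043 to 0.062 for Grin2c, -0.15 to 0.14 for Grm2 and -0.017 to 0.010 for Grm8. Scaling moved the median of all genes by less than 0.1 on the log2 scale. The estimated depth limits what can be said of Gabra6, Gabrp, Gabre and Gabrq, which were not tested.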
